A study of Homo sapiens with 5 samples.

Results

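The mitochondrial respiratory chain passes electrons from food-derived carriers to oxygen and uses the released energy to pump protons, which then drive ATP synthase. Complex II (succinate dehydrogenase) also works in the citric acid cycle, complex III (cytochrome bc1) hands electrons to cytochrome c, complex IV (cytochrome c oxidase) reduces oxygen, and complex V is the F1Fo ATP synthase. Most of their subunits are made from nuclear genes and imported, and a few core subunits of complexes III, IV and V are made inside the organelle. The nuclear genes of these 4 complexes are described here in gefitinib-tolerant lung cancer cells. They were taken from the authors' deposited table by symbol (SDHA to SDHD, UQCR genes and CYC1, COX4 to COX8 genes, and names starting with ATP5), with pseudogene symbols left out. The rule found 43 genes among 27477, of which 4 belong to complex II, 9 to complex III, 13 to complex IV and 17 to complex V. An adjusted p was present for 42 of them, among 15223 genes with one. The only member without an adjusted p was COX7A1. Also, 2 rows match by name only, since ATP5S (now DMAC2L) and ATP5SL (now DMAC2) encode no subunit of ATP synthase.

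PC9 is an established human cell line from a lung adenocarcinoma with an activating EGFR mutation, and gefitinib inhibits that kinase. Poly(A) RNA was sequenced with a stranded kit from 3 libraries of untreated parental cells and 2 of drug-tolerant cells, which had been kept in 50 nM gefitinib for 6 days and then in medium without it for 3 days. The authors' deposited table gives 1 mean level per gene over all 5 libraries, in reads divided by a size factor for each library, and 1 DESeq2 comparison, whose log2 fold change is above 0 where drug-tolerant cells have more. Errors are the authors' standard errors, and the labels do not say whether replicates were separate cultures, so p-values measure only the spread between these libraries. Depth was about 14.2 to 21.4 M counted reads per library, estimated as the size factor times the summed mean levels. Size factors and sign were recovered from whole reads of low genes. All 7 epithelial markers were abundant in the authors' deposited table, from 3778 (CDH1) to 35758 (KRT8). Of 12 markers of other cells, PTPRC, COL1A2, DCN, ALB, MYH7 and ACTN2 had no row, and in the authors' deposited table CKM, CD68, VWF, COL1A1, CDH5 and PECAM1 had mean levels of 0.73, 2.82, 6.61, 162, 253 and 1616. The endothelial marker PECAM1 was at a log2 fold change of 0.57 ± 0.26 (adjusted p 0.442).

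No member was called at an adjusted p under 0.05 in the authors' deposited table (DESeq2), where 0.552% of all tested genes were called, 0.289% lower and 0.263% higher in drug-tolerant cells. At an unadjusted p under 0.05, 16 of 42 members were lower and 0 were higher, against 7.1% and 3.7% of all tested genes. These 16 were 8 genes of complex IV, 6 of complex V and 2 of complex III, and complex II had none. The fold change was below 0 for 40 of 42 members, against 51.6% of all tested genes, and the members' median was -0.63, against -0.02. By complex, the median log2 fold change in the authors' deposited table was -0.13 for complex II, -0.50 for complex III, -0.74 for complex IV and -0.69 for complex V. These differences between complexes were not tested, because the members share libraries and are not replicates. In bulk RNA, fewer cells of a type and less RNA per cell cannot be told apart.

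**Figure D1:**
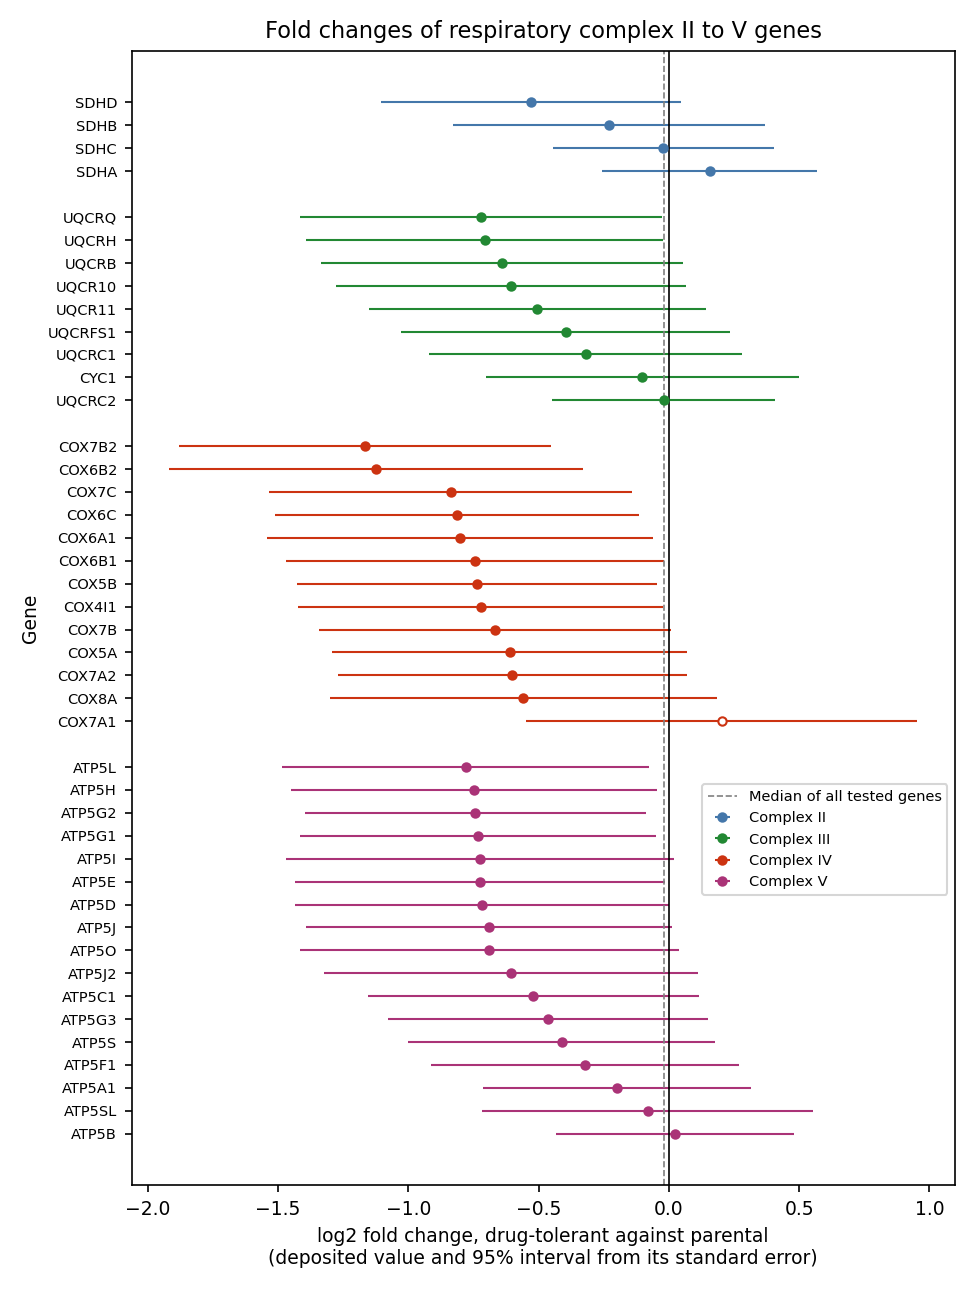
Log2 fold change of each member (horizontal axis, drug-tolerant against parental, deposited value) with the 95% interval from its standard error, grouped by complex on the vertical axis. The open circle is COX7A1, which has no adjusted p, and the dashed line is the median of all tested genes, -0.02; 40 of the 42 tested members lie below 0, and most intervals reach or come close to it.

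The members are short transcripts, and in this comparison fold changes followed transcript length. Measured as the median of GENCODE transcripts matched to a RefSeq mRNA, members had a median length of 1015 nucleotides, against 2854.5 for all tested protein-coding genes. Across 12315 such genes, whose values share the same 5 libraries, the log2 fold change and log2 length had a Pearson correlation of 0.54, and across the 42 members it was 0.38. Of 740 tested protein-coding genes under 1000 nucleotides, 28.1% were lower at an unadjusted p under 0.05 and 88.6% were below 0. The 21 tested members of that length counted 11 and 21. Of genes between 1000 and 2000 nucleotides, 13.1% were lower at that p, and 4 of 13 members were. Between 2000 and 4000 nucleotides, 5.27% of 5025 genes and 1 of 8 members were lower at that p. Of these genes 52.8% were below 0, with a median of -0.02, and 7 of the 8 members were, with a median of -0.36. Removing the running median of the fold change over 501 genes of similar RefSeq-matched length moved the members' median from -0.63 to -0.14. After that step 33 of 42 members were still below 0, against 50.0% of the genes in the trend, and 0 were called, against 0.796%. The 8 members of 2000 to 4000 nucleotides then had a median of -0.41. Among these 8, UQCRB, ATP5G3 and ATP5A1 have RefSeq-matched transcripts that differ in length by over 3 times. For the shortest genes the window reaches mainly to longer ones, so the value removed there rests on these. Much less was removed with the length measure planned first, the median over all protein-coding transcripts of a gene, which left the members at -0.54 and called 0 of them, against 0.594%.

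**Figure D2:**
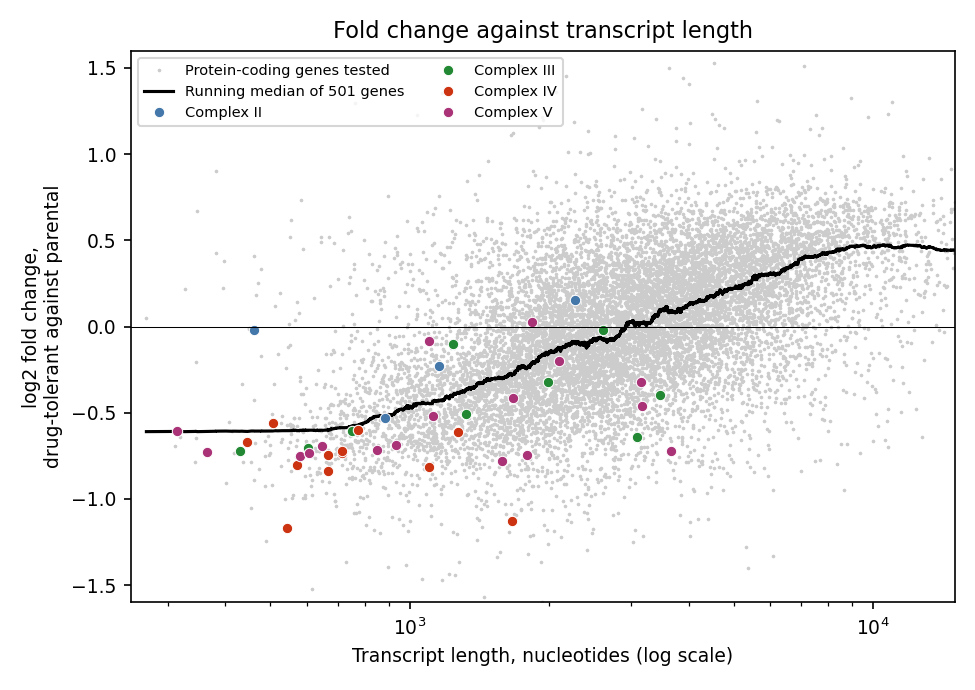
Log2 fold change (vertical axis) against RefSeq-matched transcript length in nucleotides (horizontal log axis) for tested protein-coding genes in grey and the members in colour by complex, with the running median over 501 genes as a line. Most members lie at the short end and below the line; near both ends the window takes genes mainly from 1 side, and genes beyond the axes are not drawn.

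The libraries differed in the same property within 1 group. Among low protein-coding genes, the ratio of reads from long transcripts (over 4 kb) to reads from short ones (under 2 kb) was 0.618 in parental a, 0.372 in parental b and 0.359 in parental c. The ratio was 0.614 in drug-tolerant a and 0.535 in drug-tolerant b. Parental a was thus at the level of the drug-tolerant libraries, and the groups overlapped. The part of this difference in the members' fold changes was not tested. The length trend comes from the same 5 libraries, so its removal cannot tell this difference from a shared change of short genes.

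**Figure D3:**
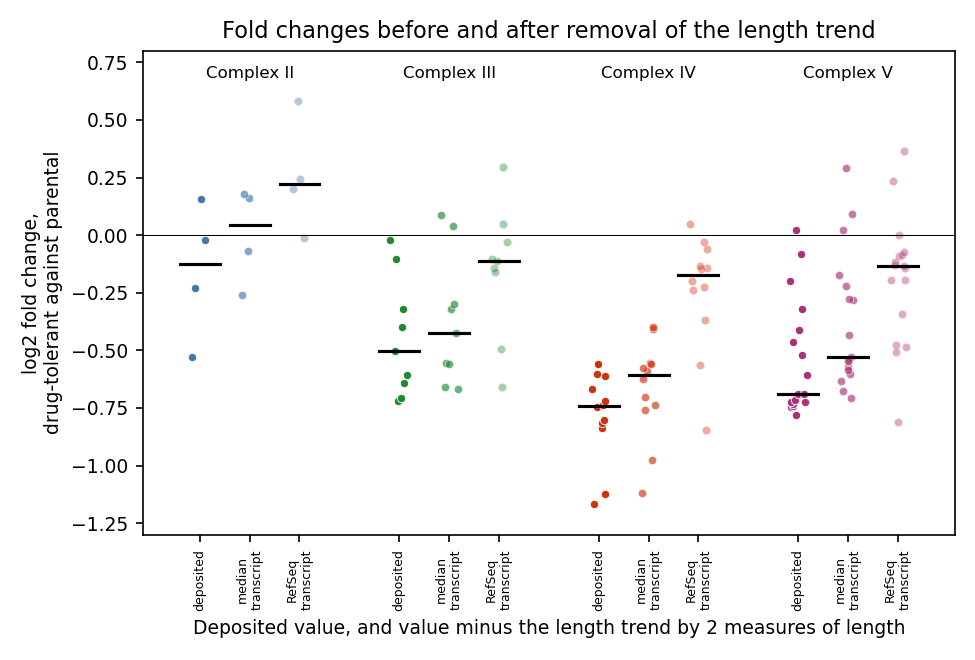
Log2 fold change of each member as deposited, after removal of the length trend with the median protein-coding transcript, and after its removal with RefSeq-matched transcripts, by complex, with the median of each complex as a bar. Complexes III, IV and V move from medians of -0.50, -0.74 and -0.69 to -0.11, -0.17 and -0.14 with RefSeq-matched lengths, and complex II moves from -0.13 to 0.22. With the median protein-coding transcript, complexes II, III, IV and V have medians of 0.05, -0.42, -0.61 and -0.53.

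As deposited, succinate dehydrogenase had the median fold change nearest 0 of the 4 complexes. With the RefSeq length trend removed, its median of 0.22 was the farthest from 0. With the length measure planned first its median was 0.05, again the nearest to 0. SDHA, the flavoprotein that oxidises succinate, was at 0.16 ± 0.21 (SE) with a mean level of 2904 and an adjusted p of 0.718 in the authors' deposited table. SDHB, its iron-sulfur partner, was at -0.23 ± 0.31 (adjusted p 0.717). Of the membrane anchors that bind haem and ubiquinone in the authors' deposited table, SDHC was at -0.02 ± 0.22 (95% interval -0.45 to 0.40) and SDHD at -0.53 ± 0.29 (adjusted p 0.487). SDHD was thus the lowest of the 4, and its interval, from -1.10 to 0.05, still reached above 0. The deposited intervals of SDHB and SDHA reached above 0 as well. After removal of the RefSeq length trend SDHD came to -0.01, SDHB to 0.20 and SDHA to 0.25. SDHC came to 0.58, but its RefSeq-matched transcripts run from 369 to 13566 nucleotides and its place on the trend is doubtful. The rows of SDHA pseudogenes together had 38.1% of SDHA's mean level, not divided by length, and near-identical copies can share reads, so SDHA is uncertain.

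In complex III the small supernumerary subunits had lower fold changes than the core. UQCRQ, a small membrane subunit (chromosome 5, 132866560 to 132868031, GRCh38), had a log2 fold change of -0.72 ± 0.35, a mean level of 1183 and an adjusted p of 0.457 in the authors' deposited table. UQCRH, the hinge protein beside cytochrome c1, was at -0.71 ± 0.35 with the highest level per kilobase of the complex. The other small subunits UQCRB, UQCR10 and UQCR11 were at -0.64 ± 0.35, -0.61 ± 0.34 and -0.50 ± 0.33 in the authors' deposited table. The catalytic and core subunits ran closer to 0. UQCRFS1, the Rieske iron-sulfur protein, was at -0.40 ± 0.32 in the authors' deposited table, and CYC1, cytochrome c1, at -0.10 ± 0.31. The core proteins UQCRC1 and UQCRC2, related to processing peptidases, were at -0.32 ± 0.31 and -0.02 ± 0.22 in the authors' deposited table. The median was -0.64 over the 5 supernumerary genes and -0.21 over the 4 core genes. The groups also differed in length, with median lengths of 750 and 2300 nucleotides. After removal of the RefSeq length trend their medians were -0.11 and -0.06, but with the length measure planned first they were -0.55 and -0.13. With RefSeq-matched lengths UQCRFS1 at -0.49 and UQCRB at -0.66 stayed farthest below 0, and UQCRB has RefSeq-matched transcripts of 595 and 5575 nucleotides.

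Cytochrome c oxidase held the 2 members with the lowest fold changes, and both are isoforms known from testis. COX7B2 (chromosome 4, 46734827 to 46909235, GRCh38), the paralog of the general subunit COX7B, was at -1.17 ± 0.36 with a mean level of 257 and an adjusted p of 0.121 in the authors' deposited table. The deposited fold change, which is moderated towards 0, corresponds to a level in parental cells 2.25 times that in drug-tolerant cells. COX6B2 (chromosome 19, 55349306 to 55354814) was at -1.12 ± 0.40 with a mean level of 35.0 and an adjusted p of 0.267 in the authors' deposited table. COX6B1, its general counterpart, was at -0.74 ± 0.37 and COX7B at -0.67 ± 0.34, so each isoform's value was below that of its general form, a difference that was not tested. After removal of the RefSeq length trend COX6B2 was the lowest member at -0.84, and COX7B2 was at -0.56. With the length measure planned first COX7B2 was at -1.12 and COX6B2 at -0.97. Of the exon bases of COX6B2, 33.9% are shared with another gene on the same strand in GENCODE. Its mean level splits into whole reads in 2 ways, so its reads per library are not settled. In 1 of these, drug-tolerant a (39.7 normalised reads) was above parental a (36.9) and parental b (4.91). In the other, all parental libraries were above both drug-tolerant ones.

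The muscle and heart isoform COX7A1 was the third restricted isoform with a row, at a mean level of 7.80. Its reads could be recovered for each library. There were 18, 2 and 2 reads in parental a, b and c, and 11 and 8 in drug-tolerant a and b. In normalised reads these were 15.1, 1.97 and 2.08 against 9.70 and 10.1. A single parental library was above both drug-tolerant ones and the other two were below both, so the groups overlapped. The authors' deposited table gives it a log2 fold change of 0.20 ± 0.38 and no adjusted p.

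The 10 general COX subunits lay in a narrow band, from -0.84 to -0.56. COX7C, a small membrane subunit (chromosome 5, 86617904 to 86620962), was lowest at -0.84 ± 0.36 with a mean level of 3059 and an adjusted p of 0.413 in the authors' deposited table. COX6C and COX6A1, also small membrane-spanning subunits, were at -0.81 ± 0.36 and -0.80 ± 0.38 in the authors' deposited table. The zinc-binding subunit COX5B was at -0.74 ± 0.35. COX4I1, the subunit through which ATP is known to regulate the oxidase, was at -0.72 ± 0.36 with a mean level of 4463. COX5A, COX7A2 and COX8A closed the band at -0.61 ± 0.35, -0.60 ± 0.34 and -0.56 ± 0.38 in the authors' deposited table. With the RefSeq length trend removed, the general subunits ran from -0.37 (COX6C) to 0.05 (COX8A), with a median of -0.15. Their median was -0.58 with the length measure planned first. A COX6A1 pseudogene row had 55.6% of the mean level of COX6A1, so this gene is uncertain.

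In ATP synthase, as deposited, the catalytic head was nearest 0. The head subunits were ATP5B (beta, catalytic), at 0.02 ± 0.23 with a mean level of 9797 and an adjusted p of 0.964, and ATP5A1 (alpha), at -0.20 ± 0.26, in the authors' deposited table. The interval of ATP5B ran from -0.43 to 0.48. The rotor stalk below the head was lower, with ATP5E (epsilon) at -0.72 ± 0.36, ATP5D (delta) at -0.72 ± 0.37 and ATP5C1 (gamma) at -0.52 ± 0.32 in the authors' deposited table. The 3 genes of the proton-carrying c subunit encode the same mature protein. ATP5G2 and ATP5G1 were at -0.74 ± 0.33 and -0.73 ± 0.35, and ATP5G3 at -0.46 ± 0.31 with a mean level of 6299, in the authors' deposited table.

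The peripheral stalk, which holds the head still, had a median of -0.69. Its members ATP5H, ATP5J and ATP5O were at -0.75 ± 0.36, -0.69 ± 0.36 and -0.69 ± 0.37, and the b subunit ATP5F1 at -0.32 ± 0.30, in the authors' deposited table. Among the small membrane subunits, ATP5L (g) was the lowest of complex V at -0.78 ± 0.36 with an adjusted p of 0.446 in the authors' deposited table. ATP5I (e), which with ATP5L takes part in pairing the synthase into dimers, was at -0.73 ± 0.38, and ATP5J2 (f) at -0.61 ± 0.37. The rows that match by name only were at -0.41 ± 0.30 (ATP5S) and -0.08 ± 0.32 (ATP5SL) in the authors' deposited table. After removal of the RefSeq length trend the medians were 0.08 for the head, -0.20 for the rotor stalk, -0.49 for the c subunit genes, -0.17 for the peripheral stalk and -0.12 for the small membrane subunits. With the length measure planned first the medians were, in the same order, 0.16, -0.58, -0.53, -0.59 and -0.54. Of single genes ATP5E was lowest at -0.81 with RefSeq-matched lengths, followed by ATP5G2 at -0.51 and ATP5G3 at -0.49. ATP5E has a single RefSeq-matched transcript of 3665 nucleotides in this annotation, and ATP5G3 has 842 and 5484, so both places on the trend depend on which transcript the reads come from. RefSeq-matched lengths differed by over 3 times within 5 of the 43 members.

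Levels of members were compared with each other per kilobase of RefSeq-matched transcript, over all 5 libraries. The highest of each complex was SDHC at 3999, UQCRH at 6228, COX4I1 at 6268 and ATP5B at 5328 per kilobase. The order depends on the transcript where lengths are doubtful, since SDHC came to 136 per kilobase with its longest RefSeq-matched transcript, and ATP5G3 to 7481, above ATP5B, with its shortest. The median of complexes II, III, IV and V was 1324, 1071, 1584 and 1447 per kilobase. Restricted isoforms stood far below their general forms, since the level per kilobase of COX7B was 10.7 times that of COX7B2, that of COX6B1 137 times that of COX6B2 and that of COX7A2 206 times that of COX7A1. Of the summed c subunit level per kilobase, ATP5G1 had 43.5%, ATP5G3 36.5% and ATP5G2 20.0%. With the shortest transcript of each gene ATP5G3 came first at 68.2%, and with the longest it had 25.1%, so these shares set no order between ATP5G1 and ATP5G3. In complexes III, IV and V, subunits that occur in set ratios were thus spread over more than a factor of 10 in these values. Those of complex II ran from 1130 (SDHB) to 3999 (SDHC). UQCR11 was the lowest general subunit at 93.3 per kilobase and ATP5O the next at 110.

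Several of the low members share exons with another gene. In GENCODE, 8 members share at least 10% of the exon bases of their RefSeq-matched transcripts with another gene on the same strand. The highest shares were 70.3% for ATP5O, 34.5% for COX8A, 33.9% for COX6B2, 32.1% for ATP5J2 and 30.6% for COX6A1. The median level per kilobase was 434 over these 8 genes and 1840 over the other 35. Leaving out restricted isoforms and rows matched by name only, 5 subunits were under 500 per kilobase, a limit chosen after the values were seen, and 4 of these share at least 10%, against 3 of the 33 at or above it. None of the 8 overlapping genes that cover at least 10% has a row in the authors' deposited table. How the authors' counting treated reads that fall in 2 genes is not given in the sources used here, and its part in these levels was not tested. The fold changes of both sets were alike, with medians of -0.65 and -0.63.

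**Figure D4:**
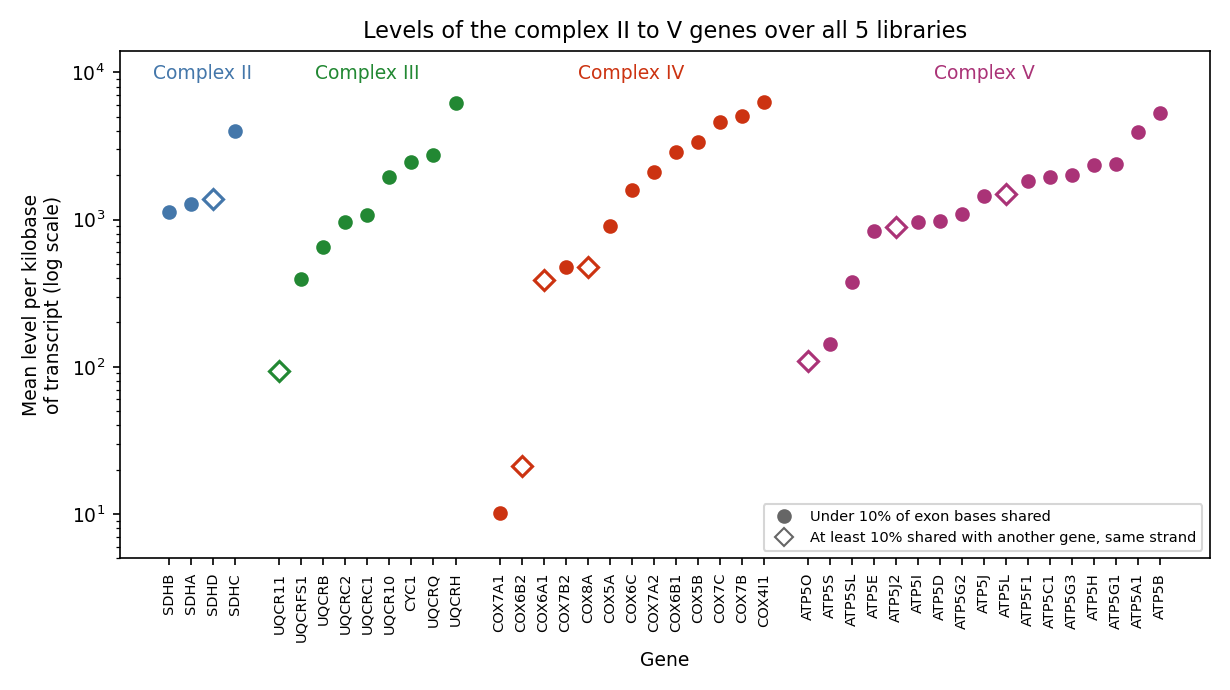
Mean level over all 5 libraries per kilobase of RefSeq-matched transcript (vertical log axis) for each member, ordered within its complex along the horizontal axis. Open diamonds share at least 10% of their exon bases with another gene on the same strand; UQCR11 (93.3) and ATP5O (110) are the lowest general subunits, and COX7A1 and COX6B2 the lowest of all.

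Genes that help to make the complexes without being part of them, called assembly factors here, had a median nearer 0 than the subunits. Of 37 assembly factors 36 had an adjusted p and 0 were called, against 0.552% of all tested genes. At an unadjusted p under 0.05 (DESeq2), 2 (5.56%) were lower, against 7.1% of all tested genes. Below 0 were 27 (75.0%), against 51.6% of all tested genes and 79.2% of protein-coding genes of 1000 to 2000 nucleotides. The median log2 fold change of the assembly factors was -0.19. The 2 lower at that p were SURF1 and COA6, which help to assemble cytochrome c oxidase and its copper site. They were at -0.69 ± 0.35 and -0.68 ± 0.32 in the authors' deposited table. COA5 and COX16 of the same list were at -0.53 ± 0.28 and -0.65 ± 0.40. SDHAF1, SDHAF3, SDHAF2 and SDHAF4, the assembly factors of succinate dehydrogenase, were at -0.67 ± 0.36, -0.47 ± 0.36, -0.43 ± 0.38 and -0.10 ± 0.35 in the authors' deposited table. For complex III, BCS1L, which inserts the Rieske protein, was at 0.36 ± 0.24, UQCC2 at -0.46 ± 0.32, UQCC1 at 0.28 ± 0.23 and TTC19 at -0.06 ± 0.22 in the authors' deposited table. For complex V, TMEM242 was at -0.64 ± 0.34, TMEM70 at -0.26 ± 0.32, ATPAF1 at -0.02 ± 0.23 and ATPAF2 at 0.02 ± 0.29 in the authors' deposited table. The median of all assembly factors was 0.05 with the RefSeq length trend removed and -0.12 with the length measure planned first. Whether their median differs from the members' was not tested.

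The 6 subunits made from mitochondrial DNA were all below 0, with a median of -0.42. Below 0 were 51.6% of all tested genes, 88.6% of protein-coding genes under 1000 nucleotides and 79.2% of those of 1000 to 2000. The 6 have no RefSeq-matched length here. With the length measure planned first their median was -0.26, and MT-CO1 came to 0.02. Of these 6, 0 were called or lower at an unadjusted p under 0.05 (DESeq2). Cytochrome b (MT-CYB) was at -0.49 ± 0.29, MT-CO2 at -0.46 ± 0.33, MT-ATP6 at -0.43 ± 0.30 and MT-ATP8 at -0.41 ± 0.25 in the authors' deposited table. Nearest 0 were MT-CO3 at -0.31 ± 0.28 and MT-CO1 at -0.15 ± 0.26. Poly(A) selection captures these transcripts unevenly, so their levels were not set beside those of nuclear genes. A further 7 subunits and partners with other names were also below 0, with a median of -0.60 and 0 called. At an unadjusted p under 0.05 (DESeq2) 3 (42.9%) were lower, against 7.1% of all tested genes. That share was 28.1% of protein-coding genes under 1000 nucleotides and 13.1% of those of 1000 to 2000. The 3 were ATP synthase subunit ATP5MJ (-0.79 ± 0.37), hinge protein copy UQCRHL (-0.77 ± 0.36) and supercomplex factor COX7A2L (-0.70 ± 0.34) in the authors' deposited table. UQCRHL had a mean level of 222, against 3761 for UQCRH, and near-identical copies can share reads, so UQCRHL is uncertain. ATP5IF1, the inhibitor of the synthase, was at -0.60 ± 0.36. With the RefSeq length trend removed the median of these 7 genes was -0.26, and 2 were above 0. With the length measure planned first their median was -0.56.

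Regulators of respiratory genes are longer, with a median of 3193.5 nucleotides. Of 9 with an adjusted p, 2 were below 0, against 51.6% of all tested genes. The median of the 9 was 0.09, and 0 were called or past an unadjusted p of 0.05 (DESeq2). The coactivator PPARGC1B was at 0.75 ± 0.41 (adjusted p 0.474) and the related PPRC1 at 0.46 ± 0.27 in the authors' deposited table. NRF1 and GABPA, which bind promoters of respiratory genes, were at 0.20 ± 0.26 and 0.17 ± 0.30. PPARGC1A, the coactivator best known for driving mitochondrial growth in muscle and brown fat, had a mean level of 0.589 and no adjusted p. With the RefSeq length trend removed 4 of the 9 were below 0 and the median was 0.10, and the difference from the members was not tested.

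The promoters of these genes were searched for letters that GABPA (an ETS factor), NRF1, YY1 and general promoter factors are known to bind, and the shares were set beside those of all coding promoters, with no test. RefSeq promoters on GRCh38.p14, from 250 bases before to 50 after the start, matched 33 of 43 members. The ETS letters CCGGAAG, read on both strands, occurred in 14 of these 33 (42.4%), against 14.2% of 15842 promoters of protein-coding genes. The NRF1 half-site letters GCATGCG occurred in 8 (24.2%, against 5.14%) and the YY1 letters AAGATGG in 9 (27.3%, against 6.40%). The GC-box letters GGGCGG, in 54.5%, and CCAAT, in 42.4%, were nearer the background of 58.5% and 36.4%. Letters are a description of the sequence and not of binding. The following 10 windows of 29 bases, from 9 of the 14 members, are all those in which the ETS letters, in capitals, lie with their flanks before the RefSeq start, and they show that the letters occur in all 4 complexes. These 9 members run from -0.75 (ATP5H) to -0.23 (SDHB), and neither the lowest members, COX7B2 and COX6B2, nor SDHA, the highest tested one, hold the letters. GENCODE includes transcripts that start farther upstream, so 7 of the 10 windows lie at least partly within the gene as GENCODE gives it. Each reads 5′ to 3′ on the gene's strand, and CTTCCGG is CCGGAAG on the opposite strand. UQCR11 has 2 windows, which overlap.
ATP5H, chr17:75047053-75047081 (minus strand): ccgggaagataCTTCCGGaaccagccctc
COX5B, chr2:97646014-97646042 (plus strand): gaagcccgcccCCGGAAGtccctcctgtc
UQCRQ, chr5:132866577-132866605 (plus strand): aatggtatctcCCGGAAGttacctcacga
UQCRH, chr1:46303641-46303669 (plus strand): agtgtgccgcaCTTCCGGccagatcgccg
ATP5J, chr21:25735067-25735095 (minus strand): tgccaggggacCCGGAAGcacttaccctc
COX8A, chr11:63974591-63974619 (plus strand): cagctccagaaCTTCCGGccagcgcagcc
SDHD, chr11:112086785-112086813 (plus strand): ccgcctctcgaCTTCCGGttcacccagca
UQCR11, chr19:1605562-1605590 (minus strand): tccaaccctcgCCGGAAGttactgtaagt
UQCR11, chr19:1605542-1605570 (minus strand): actgtaagtggCTTCCGGgtctgcgcgca
SDHB, chr1:17054143-17054171 (minus strand): cacccgggaaaCCGGAAGccgcctcccac

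Fold changes of members with and without the letters overlapped. The median log2 fold change in the authors' deposited table was -0.72 over the 14 members with the ETS letters and -0.61 over the 19 matched members without. For the NRF1 letters the medians were -0.71 and -0.67, and for the YY1 letters both were -0.69. By complex, the ETS letters occurred in 2 of 3 matched promoters of complex II, 3 of 7 of complex III, 5 of 11 of complex IV and 4 of 12 of complex V. All of the ETS, NRF1 and YY1 letters occurred in 3 members, and none of them in 12.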

How the data were processed

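RNA-seq of 3 parental and 2 gefitinib-tolerant PC9 libraries was used as 1 result table. The authors ran FastQC, STAR and DESeq2 on build hg38, per the submitters' processing notes; how reads were counted, and with which annotation, is not given in the sources used here. Per the file headers, the deposited mean level is a signal, reads divided by size factors and averaged over libraries. The deposited log2 fold change and its error are on the log2 scale, and moderated towards 0. The authors deposited the Wald score, the p-value and the Benjamini-Hochberg adjusted p-value of each gene, and the largest difference from values recomputed was 1.2e-07 for the score and 2.0e-05 for the adjusted p. The smallest mean level with an adjusted p was 8.23.

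The table holds no values per library, so the planned count test for such values was not run, and the main test is the authors' DESeq2 Wald test with an adjusted p under 0.05 over all tested genes ("called"). Means under 10 could be split into whole reads of 5 libraries in 1 way for 12705 of 12705 genes (tolerance 1.5e-09), which gave size factors. Depths are size factors times the summed mean levels, which takes the normalised total as equal in all libraries. Reads in 3 libraries pulled the fold change down and in 2 up, the same numbers as in the groups. With libraries placed in groups by that pull, the deposited sign was that of the reads for 98.9% of low genes. This share largely follows from the placement and does not test the direction, which rests on the 3 against 2 split. Libraries could not be matched to replicate numbers. Recovery and trend removal were tested on simulated data.

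Lengths, coordinates and shared exons came from GENCODE 29 (GRCh38) with bedtools 2.31.1, and the rest was computed in Python 3.11.15 with pandas 2.3.3. Every member with an adjusted p was to be named, with up to 4 genes of each assembly, partner or regulator list by smallest adjusted p. COX7A1, MT-CO1, MT-CO3, markers and PPARGC1A were named in addition. The members and lists were chosen with earlier results of these data known, and the RefSeq-matched length and shared-exon alternatives were chosen after seeing the data.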

Additional observations from a re-analysis of the deposited data

How the results depend on the processing

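Under every alternative run, 0 members were called (adjustment over genes with a mean of at least 50 or over all rows, thresholds of 0.01 and 0.1, a rescaled score, and removal of the length trend in 3 forms). At these settings 85, 60, 39, 153, 1, 90, 89 and 98 genes were called in all. The median log2 fold change of the members, -0.63, was -0.61 after centring, -0.54 after removal of the trend with the median transcript, -0.40 with the longest transcript, -0.65 without rows matched by name only, -0.61 for means of at least 50 and -0.63 for members with under 10% shared exons. With RefSeq-matched lengths, chosen after seeing the data, it was -0.14, and complexes II, III, IV and V came to 0.22, -0.11, -0.17 and -0.14. The planned length removal brought the complexes to 0.05, -0.42, -0.61 and -0.53. RefSeq-matched lengths moved 28 of 42 single members by more than their standard error, and the planned length removal moved 1 of 42. Fold changes of low members such as COX6B2 are limited by depth and moderated towards 0. No paired analysis was possible because the table gives no values per library; for the same reason edgeR, other size factors and leaving out each replicate were not run.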

Other observations

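The members together took 0.50% of the summed mean levels of all rows in the authors' deposited table. GENCODE names 104 pseudogenes after the members, and 21 of them had a row, for 14 members. The pseudogene rows of a member summed to a median of 0.242% of its level, with SDHA, COX6A1 and UQCRFS1 (5.85%) as the members above 1%.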
